A study of Mus musculus with 16 samples.

Results

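Transcript levels of 9 transcription factors that direct the macrophage lineage, Spi1, Cebpa, Cebpb, Maf, Nr1h3, Id3, Klf4, Nr4a1 and Zeb2, were followed in lymph node macrophages of tumor-bearing mice. The members were the rows of the count table whose Ensembl gene ID carries one of these symbols, and 9 of 9 were found among 55421 genes. All 9 passed the filter on low counts, as did 21085 genes in all. Subcapsular sinus macrophages (SSMs) and medullary sinus macrophages (MSMs) were compared in tumor-draining lymph nodes (tdLN) and in non-draining lymph nodes (ndLN). The mice were male C57BL/6 without a stated genetic change, and all carried MOC2, a transplantable mouse squamous cell carcinoma, of which 500000 cells had been implanted into the skin of the flank 2 weeks before collection. The ndLN were the inguinal, axillary and brachial nodes of the opposite flank of the same animals, so that no group came from a tumor-free mouse. The tumor cells were implanted near the inguinal node, so the mix of node sites differed between tdLN and ndLN too. Node site and drainage cannot be told apart in these groups. Both subsets were sorted as live CD45+ CD3- B220- Ly6G- CD11b+ CD169+ cells, SSMs as CD11c- cells of low side scatter and MSMs as CD11c+ cells of high side scatter. Each library came from about 10000 cells of a pool of 2 mice, which gave 2 tdLN or 6 ndLN, and each of the 4 groups had 2 libraries, numbered 1 and 2 in the sample labels.

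PU.1, the product of Spi1, is an ETS-family factor that myeloid cells need to form and that opens the regulatory regions of macrophage genes. C/EBPα and C/EBPβ are leucine zipper factors that cooperate with it in progenitors and in inflammatory macrophages. c-Maf restrains self-renewal of mature macrophages, LXRα (Nr1h3) is an oxysterol receptor that switches on cholesterol export and clearance genes and is needed by CD169+ macrophages of the splenic marginal zone, and the repressor ZEB2 preserves the identity of resident macrophages. ID3 binds E proteins and blocks their access to DNA, KLF4 is a zinc finger factor of monocytes, and NR4A1 is a nuclear receptor encoded by an immediate early gene and needed by Ly6C-low monocytes.

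Among the members, Cebpb, Maf and Zeb2 were higher in SSMs than in MSMs in both kinds of node, whereas Spi1 was 4.77-fold higher in MSMs in ndLN. Spi1, Cebpa, Nr1h3 and Zeb2 were higher in SSMs from tdLN than in SSMs from ndLN, by 2.48-fold to 5.39-fold. No member was called between tdLN and ndLN in MSMs.

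The sorted cells were first checked against markers of the cell types they could hold. Levels are given as CPM, counts scaled to a common library size, here by TMM, which corrects for differences in library composition. The 10 macrophage markers summed to between 5925 and 9156 CPM in SSMs from ndLN, 15380 and 22460 CPM in SSMs from tdLN, 4683 and 5290 CPM in MSMs from ndLN and 4670 and 5043 CPM in MSMs from tdLN, mostly from Lyz2, and Vsig4 was at or under 3 counts in every library. In ndLN, 6 of the 9 that passed the filter were higher in SSMs. Cd68 ran the other way there, at 385 and 326 CPM in MSMs against 211 and 134 CPM in SSMs. Siglec1, which encodes the sorted marker CD169, was at 8.47 to 70.0 CPM in the 4 SSM libraries and at 0.795 to 5.96 CPM in the 4 MSM libraries. Itgam, which encodes CD11b, was likewise lower in MSMs, at 9.64 to 20.4 CPM against 54.6 to 124 CPM in SSMs. The RNA of these 2 sort markers was thus low in the libraries labelled MSM, whereas Itgax, which encodes CD11c, was at 316 to 418 CPM in MSMs and 63.6 to 149 CPM in SSMs, and Ptprc, which encodes CD45, was at 1149 to 2590 CPM. The 6 dendritic cell markers summed to 3437 to 3884 CPM in MSMs and to 679 to 2111 CPM in SSMs. In SSMs most of this sum was Ccr7, which T cells also express, at 601 to 1877 CPM against 1644 to 2100 CPM in MSMs. Flt3 was at 672 to 852 CPM in MSMs against 27.9 to 59.3 CPM in SSMs, and Clec9a at 132 to 203 CPM against 0.807 to 2.08 CPM.

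Markers of T cells, innate-like lymphoid cells, NK cells and neutrophils summed to more in every SSM library than in any MSM library. In SSMs from ndLN, the 9 T cell markers summed to 2238 and 2478 CPM, against 995 and 1140 CPM in SSMs from tdLN and 91.5 to 275 CPM in the 4 MSM libraries. The 7 markers of innate-like lymphoid cells stood at 1078 and 1363 CPM in SSMs from ndLN, 475 and 533 CPM in SSMs from tdLN and 31.5 to 63.6 CPM in MSMs. The 6 NK and cytotoxic markers reached 1506 to 2493 CPM in SSMs and 12.5 to 83.7 CPM in MSMs, and the SSM libraries of the 2 kinds of node overlapped. Mast cell and basophil markers summed to 1752 and 2679 CPM in SSMs from ndLN, 250 and 573 CPM in SSMs from tdLN and 270 to 619 CPM in MSMs, where nearly all was Kit (269 to 614 CPM) and Cpa3 was at most 0.330 CPM. Of these 8 markers, 1 was higher in SSMs from tdLN than from ndLN, Mcpt8, at 20.4 and 23.8 against 1.60 and 3.92 CPM. The 3 monocyte markers summed to 750 and 1217 CPM in SSMs from ndLN, to 2372 and 2395 CPM in SSMs from tdLN and to at most 309 CPM in MSMs. B cell markers stayed at or under 40.7 CPM, eosinophil markers at or under 78.2 CPM and lymphatic endothelial markers at or under 8.85 CPM in every library, and neutrophil markers were at 15.0 to 217 CPM in SSMs and at most 7.62 CPM in MSMs. In such bulk samples, fewer cells of a type and less RNA per cell cannot be told apart, and the part of these other cells in the results below was not tested except where a value is given.

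**Figure D1:**
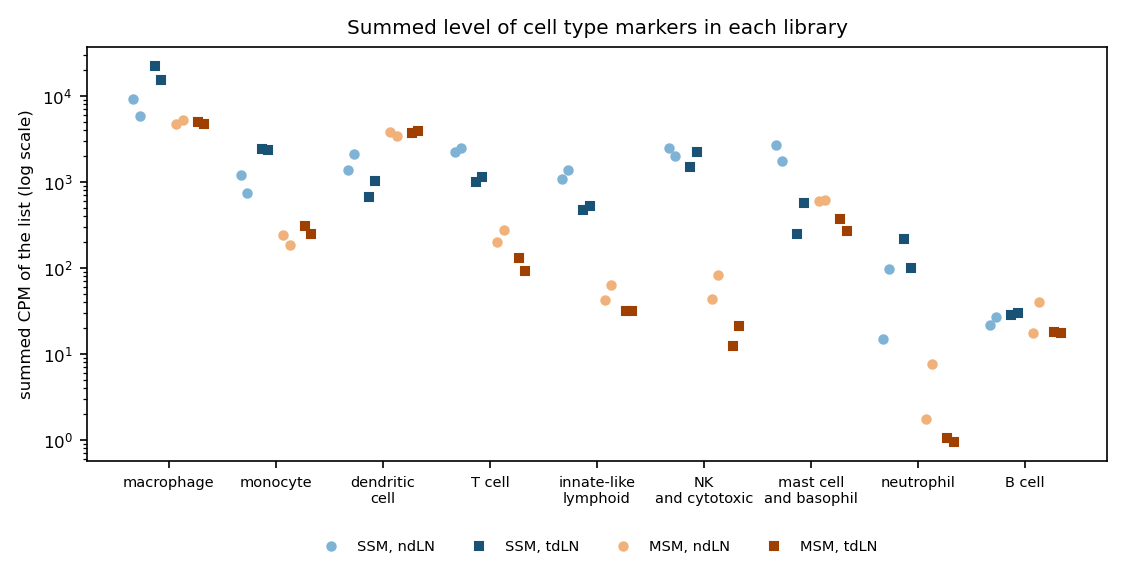
Summed CPM of each cell type marker list (log scale) in each library, with 2 points per group, circles for ndLN and squares for tdLN, blue for SSMs and orange for MSMs. Macrophage and monocyte sums were highest in the 2 SSM libraries from tdLN, T cell and innate-like lymphoid sums were highest in the 2 SSM libraries from ndLN, and dendritic cell sums were highest in the 4 MSM libraries.

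Cebpa, Nr1h3 and Zeb2 were higher in SSMs from tdLN than from ndLN, and the 250 bases before an annotated start of each are shown because they are the promoters of factors that moved in the same samples. They were searched on both strands for a PU.1 (ETS) motif, GAGGAA, a C/EBP motif, TTGCNNAA, the E-box bound by ZEB2, CACCTG, the single site that NR4A1 binds as a monomer, AAGGTCA, and the cyclic AMP response element, TGACGTCA, none of which overlapped another in these windows. The sequences are those of RefSeq on GRCm38.p6, each 5′ to 3′ on the gene's own strand and ending next to the start site, with matches in capitals. Where the table lists several starts, as for Nr1h3 with 2 and Zeb2 with 4, the one nearest to the 5′ end of the annotated gene was taken. For Nr1h3 this start still lies inside the annotated gene, whose 5′ end is at chr2:91202834.
Cebpa, chr7:35119043-35119292, plus strand: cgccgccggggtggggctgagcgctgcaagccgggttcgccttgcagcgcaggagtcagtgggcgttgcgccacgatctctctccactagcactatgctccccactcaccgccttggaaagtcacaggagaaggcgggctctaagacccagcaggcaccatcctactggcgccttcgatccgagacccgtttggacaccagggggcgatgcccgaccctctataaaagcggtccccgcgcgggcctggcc
Nr1h3, chr2:91195117-91195366, minus strand: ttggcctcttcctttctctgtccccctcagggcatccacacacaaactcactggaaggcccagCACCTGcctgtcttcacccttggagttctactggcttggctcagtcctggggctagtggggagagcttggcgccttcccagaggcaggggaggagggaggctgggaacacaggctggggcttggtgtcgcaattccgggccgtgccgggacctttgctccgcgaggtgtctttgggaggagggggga
Zeb2, chr2:45117443-45117692, minus strand: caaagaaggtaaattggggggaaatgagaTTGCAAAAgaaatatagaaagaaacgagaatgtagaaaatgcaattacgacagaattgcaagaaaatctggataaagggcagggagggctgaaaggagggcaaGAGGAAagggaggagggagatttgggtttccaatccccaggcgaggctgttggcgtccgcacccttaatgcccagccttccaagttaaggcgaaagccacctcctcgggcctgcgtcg

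The capitals in Nr1h3 mark 1 CACCTG, 187 to 182 bases before the start. Those in Zeb2 mark 1 TTGCNNAA, 221 to 214 bases before it, and 1 GAGGAA, 118 to 113 bases before it, while the Cebpa window held none of the 5 motifs. Windows were found for 7 of the 9 members, and none for Spi1 and Maf. Among the others, Id3 held 2 GAGGAA matches on its minus strand, and Cebpb, Klf4 and Nr4a1 held no match. Over 32536 RefSeq windows of the same length, 23.4% held GAGGAA, 17.3% CACCTG, 9.57% TTGCNNAA, 4.09% AAGGTCA and 1.56% TGACGTCA. A match is a description of the letters only.

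The 9 genes lie on 5 of the chromosomes that the annotation lists, all as protein-coding genes on mm10. Spi1 (chr2:91082390-91115756, plus strand), Nr1h3 (chr2:91184061-91202834, minus strand), Cebpb (chr2:167688915-167690418, plus strand) and Zeb2 (chr2:44983632-45117395, minus strand) are on chromosome 2. Cebpa (chr7:35119293-35121928) and Cebpb have 1 exon each. Maf is at chr8:115682942-115707794 on the minus strand, Id3 at chr4:136143497-136145755 on the plus strand, Klf4 at chr4:55527143-55532466 on the minus strand and Nr4a1 at chr15:101254269-101274795 on the plus strand. The library kit does not mark strand, so reads from overlapping genes cannot be told apart. Of Cebpb's exon bases, 20.7% (312 bases) are shared with Tmem189 on the opposite strand, which had 3810 to 8922 counts per library where Cebpb had at least 3617. Zeb2 shares 3.27% of its exon bases with the antisense gene Zeb2os, at 16 to 152 counts, and the overlapping genes of Cebpa, Maf and Nr1h3 had at most 7 counts.

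Levels of different genes were compared per length, as CPM per kilobase of annotated exons, averaged over the 2 libraries of a group. Nr4a1 and Cebpb led the order in SSMs from ndLN, at 511 and 499 CPM per kilobase, followed by Spi1 at 85.8, Klf4 at 49.5, Id3 at 20.8, Maf at 6.06, Nr1h3 at 5.34, Zeb2 at 4.01 and Cebpa at 1.08 CPM per kilobase. In SSMs from tdLN, Cebpb stood first at 762 CPM per kilobase and Nr4a1 second at 592, with Spi1 next at 214. MSMs had another order, in which Nr4a1 (580 in ndLN and 505 in tdLN) and Spi1 (408 and 346) led and Cebpb was at 67.3 and 79.7 CPM per kilobase. Maf was the lowest member in MSMs, at 0.371 and 0.293 CPM per kilobase. Zeb2 is understated on this scale, because its exons together span 19942 bases.

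**Figure D2:**
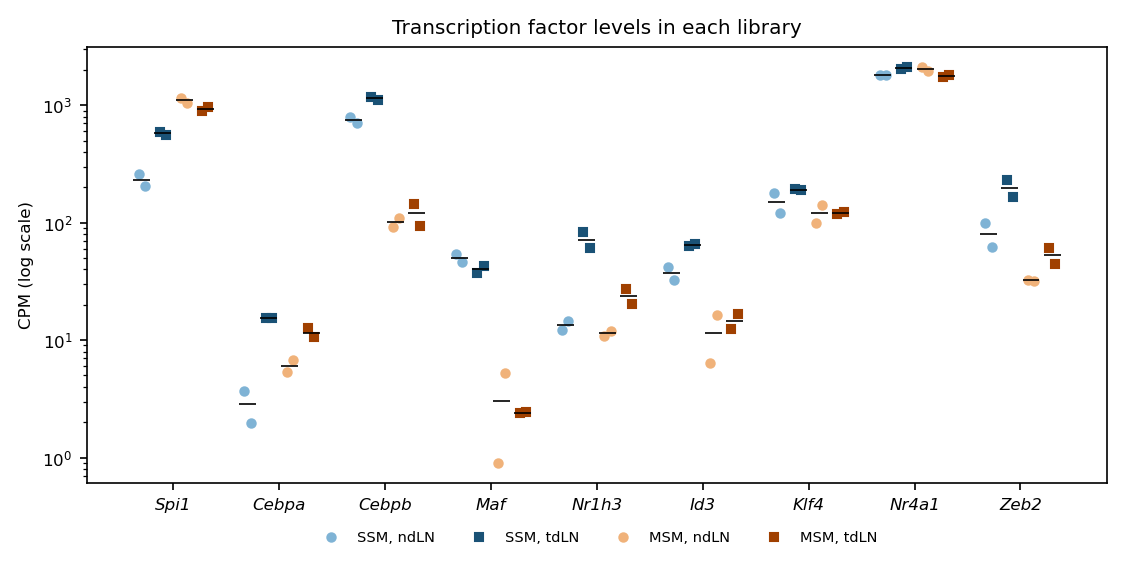
CPM (log scale) of the 9 transcription factors in each of the 8 libraries, circles for ndLN and squares for tdLN, blue for SSMs and orange for MSMs, with a line at each group mean. Maf and Cebpb are separated by subset, Cebpa and Nr1h3 by node, and Nr4a1 lies between 1728 and 2122 CPM in every library.

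Each difference was tested over 21085 genes with edgeR (quasi-likelihood test, pool as a term). A gene was called at a Benjamini-Hochberg adjusted p under 0.01 and a mean normalized count over 100. All 9 members passed that count threshold, as did 9988 of the 21085 genes, and no other gene could be called. Shares of all genes, here and below, are of the 21085 and so include genes that could not be called. Between SSMs and MSMs in ndLN, 4 of the 9 members were called, 3 higher in SSMs and 1 lower, against 12.1% of all genes (2544 genes). In tdLN, 5 of 9 were called, all higher in SSMs, against 8.69% of all genes (1832 genes). Between tdLN and ndLN, 4 of 9 were called in SSMs, all higher in tdLN, against 3.03% of all genes (639 genes). In MSMs, edgeR called 0 of 9, against 0.0237% of all genes. There 3 members had an unadjusted edgeR p under 0.05, as did 2515 of the 21085 genes. DESeq2's Wald test called 1 member, Nr1h3, and 503 of the 21085 genes. The median log2 fold change of the 9 members was 0.33 between the subsets in ndLN and 1.59 in tdLN, and 0.78 between the nodes in SSMs and 0.22 in MSMs. The medians over all genes tested were 0.091, 0.024, -0.035 and 0.0093 in the same order. The comparisons in the 2 nodes or the 2 subsets share libraries, since each of the 4 groups enters 2 of them. The labels do not say that the 2 pools of a group are from separate experiments. The p-values rest on the spread between libraries left after the group and pool terms, estimated over all 4 groups together.

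**Figure D3:**
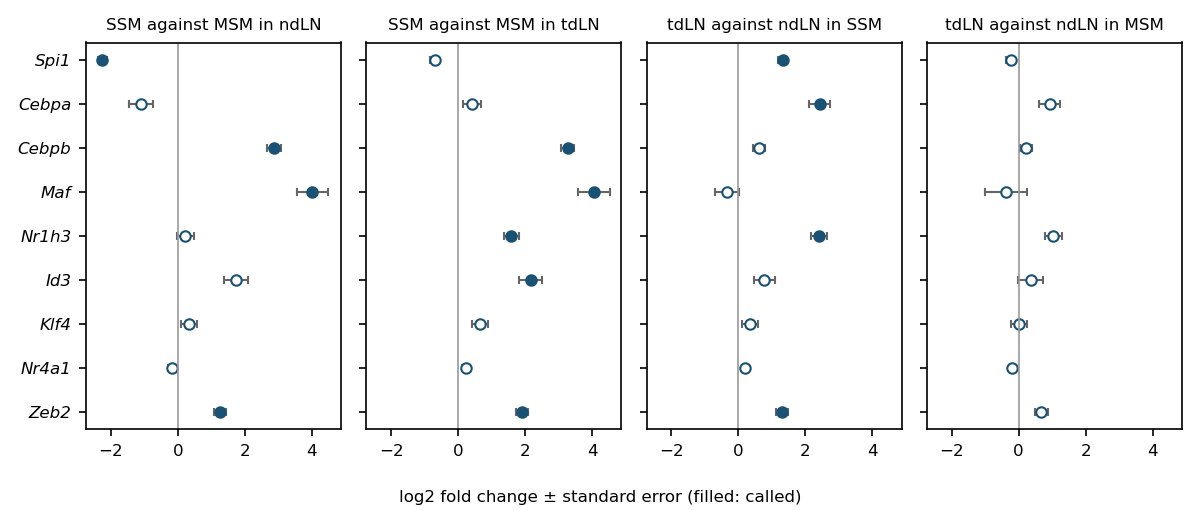
Log2 fold change with its standard error (horizontal bars) of each transcription factor in 4 comparisons, from edgeR's fit to 8 libraries, with filled points where a gene was called. The subset comparisons reach 4.05 for Maf, the node comparison in SSMs reaches 2.43 for Cebpa, and no point is filled for MSMs.

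Spi1 was at 258 and 204 CPM in SSMs from ndLN, 592 and 562 CPM in SSMs from tdLN, 1155 and 1046 CPM in MSMs from ndLN and 891 and 972 CPM in MSMs from tdLN. No library of one group overlapped with another group, and the 4 SSM libraries all lay below the 4 MSM libraries. Group means were 231 ± 38.1, 577 ± 21.2, 1100.5 ± 76.5 and 932 ± 57.5 CPM in that order (SD, n = 2 each). In ndLN, SSMs held less Spi1 RNA than MSMs, with a log2 fold change of -2.25 (SE 0.139, edgeR adjusted p = 4.59e-05). In tdLN the difference was -0.70 (SE 0.133), and its edgeR adjusted p of 0.0103 missed the threshold. SSMs from tdLN exceeded SSMs from ndLN by 2.50-fold (log2 1.32, SE 0.135, edgeR adjusted p = 0.00231), whereas the log2 difference in MSMs was -0.24 (SE 0.132, edgeR adjusted p = 0.536). The node effect in SSMs minus that in MSMs was 1.56 on the log2 scale (SE 0.188), with an edgeR adjusted p of 0.0186 that missed 0.01, and it passed a threshold of 0.05 together with 1.02% of all genes.

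Dendritic cells also express Spi1, and the dendritic cell marker sum followed the same direction between the subsets, being highest in the 4 MSM libraries. Between SSMs from ndLN and tdLN it went from 1394 and 2111 CPM to 679 and 1023 CPM. Most of this difference was Ccr7 (1233 and 1877 against 601 and 900 CPM). Zbtb46 (101 and 149 against 34.3 and 45.6 CPM) and Xcr1 (24.9 and 33.6 against 14.2 and 16.8 CPM) were lower in tdLN too. Flt3 overlapped (32.3 and 47.7 against 27.9 and 59.3 CPM). Of the 6 dendritic cell markers, 1 had a positive log2 difference between these groups. Macrophage and monocyte marker sums were higher in tdLN. The share of any of these cells in the Spi1 levels was not tested.

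The 2 C/EBP genes differed in their pattern. Cebpb was at 797 and 703 CPM in SSMs from ndLN, 1185 and 1107 CPM in SSMs from tdLN, 92.7 and 110 CPM in MSMs from ndLN and 145 and 94.5 CPM in MSMs from tdLN. All 4 SSM libraries exceeded all 4 MSM libraries, by 7.35-fold in ndLN (log2 2.88, SE 0.202, edgeR adjusted p = 7.89e-05) and 9.66-fold in tdLN (log2 3.27, SE 0.204, edgeR adjusted p = 9.37e-05). The 2 kinds of MSM overlapped. SSMs from tdLN lay above those from ndLN, at 1146 ± 55.2 against 750 ± 66.4 CPM (SD, n = 2 each), but the log2 difference of 0.61 (SE 0.186) had an edgeR adjusted p of 0.0891. Monocyte and neutrophil marker sums were also higher in every SSM library than in any MSM library. The part of these cells in the Cebpb levels was not tested.

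Cebpa was far lower, at 3.71 and 1.98 CPM in SSMs from ndLN, 15.5 and 15.4 CPM in SSMs from tdLN, 5.31 and 6.77 CPM in MSMs from ndLN and 12.6 and 10.5 CPM in MSMs from tdLN. The 4 groups did not overlap, and the tdLN group was the higher one in each subset. In SSMs the rise was 5.39-fold (log2 2.43, SE 0.318, edgeR adjusted p = 0.00497), and it rested on 98 and 202 counts in ndLN against 670 and 690 in tdLN. The call was lost with any 1 of the 8 libraries left out, at edgeR adjusted p-values of 0.0116 to 0.0746. In MSMs the log2 difference was 0.92 (SE 0.302, edgeR adjusted p = 0.291), and the difference between the 2 node effects, 1.51 (SE 0.447), had an edgeR adjusted p of 0.203. The subsets crossed between nodes, with SSMs at a log2 difference of -1.09 from MSMs in ndLN (SE 0.356, edgeR adjusted p = 0.065) and 0.42 in tdLN (SE 0.271, edgeR adjusted p = 0.378).

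Maf gave the widest separation between the subsets among the members. It was at 53.6 and 46.2 CPM in SSMs from ndLN and 37.4 and 42.5 CPM in SSMs from tdLN, against 0.897 and 5.21 CPM in MSMs from ndLN and 2.40 and 2.42 CPM in MSMs from tdLN. Every SSM library exceeded every MSM library, and the 2 MSM libraries from ndLN differed from each other more than the nodes did. Maf was 16.2-fold higher in SSMs in ndLN (log2 4.02, SE 0.459, edgeR adjusted p = 0.000713) and 16.6-fold higher in tdLN (log2 4.05, SE 0.478, edgeR adjusted p = 0.00117). The size in ndLN depended on the MSM libraries, being 3.25 on the log2 scale without the first and 5.80 without the second, and the call was kept in both cases. In SSMs the log2 difference between nodes was -0.34 (SE 0.347, edgeR adjusted p = 0.626). Maf is also expressed by T and innate-like lymphocytes, whose marker sums stood in the same order, highest in SSMs from ndLN and lowest in MSMs from tdLN, and their part in the Maf levels was not tested.

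Zeb2 was at 98.5 and 61.6 CPM in SSMs from ndLN, 229 and 164 CPM in SSMs from tdLN, 32.6 and 31.8 CPM in MSMs from ndLN and 61.4 and 44.1 CPM in MSMs from tdLN. SSMs lay above MSMs in both nodes and tdLN above ndLN in both subsets, with no overlap, although the lowest SSM library from ndLN and the highest MSM library from tdLN nearly met. SSMs exceeded MSMs by 2.41-fold in ndLN (log2 1.27, SE 0.184, edgeR adjusted p = 0.00215) and 3.73-fold in tdLN (log2 1.90, SE 0.180, edgeR adjusted p = 0.000472). In SSMs it was 2.48-fold higher in tdLN (log2 1.31, SE 0.176, edgeR adjusted p = 0.00541), and without pool in the model the edgeR adjusted p was 0.0163, which ends the call. In MSMs the log2 difference was 0.68 (SE 0.185, edgeR adjusted p = 0.209). NK cells express Zeb2 as well, and the NK and cytotoxic sum separated the subsets but overlapped between SSMs from the 2 kinds of node. The monocyte marker sum did not overlap between them, at 750 and 1217 CPM in ndLN and 2372 and 2395 CPM in tdLN. In MSMs that sum was at most 309 CPM. The part of any of these cells in the Zeb2 levels was not tested.

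Nr1h3 was close between the subsets in ndLN and apart in tdLN. Its levels were 12.2 and 14.6 CPM in SSMs from ndLN, 82.9 and 60.4 CPM in SSMs from tdLN, 10.9 and 12.1 CPM in MSMs from ndLN and 27.4 and 20.1 CPM in MSMs from tdLN. Both tdLN groups lay above all 4 ndLN libraries, and SSMs from tdLN lay highest. The rise in SSMs was 5.29-fold (log2 2.40, SE 0.237, edgeR adjusted p = 0.0022). In MSMs the log2 difference was 1.04 (SE 0.251, edgeR adjusted p = 0.171), and the difference between the node effects, 1.37 (SE 0.343), had an edgeR adjusted p of 0.14. Within tdLN, SSMs exceeded MSMs by 3.01-fold (log2 1.59, SE 0.228, edgeR adjusted p = 0.00277), while in ndLN the log2 difference was 0.22 (SE 0.257, edgeR adjusted p = 0.583). Macrophage and monocyte marker sums were highest in SSMs from tdLN too, and their part in the Nr1h3 and Cebpa levels was not tested.

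Id3 was at 41.9 and 32.7 CPM in SSMs from ndLN, 63.5 and 66.3 CPM in SSMs from tdLN, 6.41 and 16.5 CPM in MSMs from ndLN and 12.5 and 16.6 CPM in MSMs from tdLN. The subsets did not overlap, and the MSM groups overlapped each other. SSMs exceeded MSMs by 4.50-fold in tdLN (log2 2.17, SE 0.348, edgeR adjusted p = 0.00466), and in ndLN the log2 difference of 1.74 (SE 0.361) had an edgeR adjusted p of 0.0111, just outside the threshold, which it passed without pool in the model. Between the nodes in SSMs the log2 difference was 0.78 (SE 0.321, edgeR adjusted p = 0.199). Lymphocytes express Id3 too, and the T cell and innate-like lymphoid sums were higher in every SSM than in any MSM library and lower in SSMs from tdLN than from ndLN. Their part in the Id3 levels was not tested.

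Klf4 and Nr4a1 were the members that no comparison called. Klf4 was at 180 and 122 CPM in SSMs from ndLN, 192 and 191 CPM in SSMs from tdLN, 98.6 and 141 CPM in MSMs from ndLN and 119 and 124 CPM in MSMs from tdLN. The libraries of SSMs from ndLN overlapped with both MSM groups, and the log2 differences ran from 0.016 (SE 0.234, tdLN against ndLN in MSMs) to 0.66 (SE 0.233, SSMs against MSMs in tdLN). Nr4a1 was at 1791 and 1795 CPM in SSMs from ndLN, 2030 and 2122 CPM in SSMs from tdLN, 2110 and 1962 CPM in MSMs from ndLN and 1728 and 1815 CPM in MSMs from tdLN. Its highest library was 1.23-fold above its lowest. The log2 differences were -0.18 and 0.23 between the subsets in ndLN and tdLN, and 0.21 and -0.20 between the nodes in SSMs and MSMs, each with an SE of 0.097. The other immediate early genes were also abundant in every library, and the 10 listed summed to between 9937 and 14060 CPM.

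With both nodes in an additive model of subset, node and pool, 5 of 9 members were called between SSMs and MSMs, against 12.5% of all genes. Cebpb, Maf, Id3 and Zeb2 were higher in SSMs, with log2 differences of 3.08, 4.07, 1.98 and 1.59. Spi1 was lower, at -1.47 (SE 0.312, edgeR adjusted p = 0.00964), and lost its call when the filter on low counts was dropped (edgeR adjusted p = 0.0103). With both subsets, edgeR called 0 of 9 between tdLN and ndLN, against 0.223% of all genes. There 5 members had an unadjusted edgeR p under 0.05, as did 4253 of 21085 genes. DESeq2's Wald test called 3 members and 956 of 21085 genes. At an edgeR adjusted p under 0.05, 2 members passed, Nr1h3 (log2 1.75) and Zeb2 (log2 1.00), against 2.17% of all genes. The interaction of subset and node was called for 0 of 9 by edgeR, against 0.0379% of all genes. For it, 5 members had an unadjusted edgeR p under 0.05, as did 2598 of 21085 genes. DESeq2's Wald test called 1 member, Spi1, and 706 of 21085 genes.

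The calls between tdLN and ndLN in SSMs depended on having both libraries of each group. Leaving out the second SSM library from ndLN or either SSM library from tdLN left 0 members called. Leaving out the first SSM library from ndLN left 1 (Spi1), either MSM library from tdLN 2 (Spi1 and Nr1h3) and either MSM library from ndLN 3 (Spi1, Nr1h3 and Zeb2). Over all genes, 639 were called with every library and between 2 and 345 with 1 left out. The log2 differences kept their direction, between 1.17 and 1.48 for Spi1, 2.06 and 2.95 for Cebpa, 2.12 and 2.69 for Nr1h3 and 1.15 and 1.48 for Zeb2. Between SSMs and MSMs in tdLN, 1 member was called without the first SSM or the second MSM library from tdLN and 2 without the second SSM or the first MSM library, Cebpb in each of these and Zeb2 in the last pair. Maf, Nr1h3 and Id3 lost their calls in all 4, at edgeR adjusted p-values up to 0.0269, 0.0530 and 0.0595. Without either SSM library from ndLN, which is no part of that comparison but of the shared spread, 6 members were called, Spi1 being the one added (edgeR adjusted p as low as 0.00592). In ndLN, Zeb2 lost its call between the subsets without the first SSM or the first MSM library (edgeR adjusted p up to 0.0204), and Id3 gained one without the second MSM library (edgeR adjusted p = 0.0070). Spi1 over both nodes kept its call only without the first MSM library from tdLN, and its edgeR adjusted p reached 0.0509 in the other omissions.

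Genes that PU.1 is known to switch on were read from a list of 8, of which Csf1r, Itgam and Adgre1 are also among the macrophage markers. In SSMs, 4 were higher in tdLN and 0 were lower, where 3.03% of all genes were called, and the median log2 difference was 1.31, against -0.035 over all genes. Csf3r, the G-CSF receptor, went from 54.1 and 47.5 CPM in ndLN to 231 and 155 CPM in tdLN (log2 1.90, SE 0.258). Csf1r, the receptor that macrophages need to survive, went from 694 and 559 to 1887 and 1408 CPM (log2 1.39, SE 0.220). Cybb and Csf2ra, which encode an NADPH oxidase subunit and the GM-CSF receptor α chain, differed by 1.33 and 1.29 on the log2 scale. Macrophage and monocyte marker sums were also higher in SSMs from tdLN, and the part of these cells was not tested. In MSMs edgeR called 0 of 8, and the median was 0.11. There 3 of the 8 had an unadjusted edgeR p under 0.05, against 2515 of 21085 genes. DESeq2's Wald test called 1 of the 8, against 503 of 21085 genes.

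Between the subsets in ndLN, where Spi1 was lower in SSMs, 4 of the 8 were higher in SSMs and 2 were lower, where 12.1% of all genes were called. Csf3r (log2 2.79), Itgam (2.56), Cybb (1.98) and Csf1r (1.59) were higher, and Ncf1 (-2.00), another NADPH oxidase subunit, and Csf2ra (-1.85) were lower. In tdLN, where 8.69% of all genes were called, 5 were higher in SSMs, 1 was lower, and the median log2 difference was 2.48, with Csf3r at 3.19 and Cybb at 2.99.

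LXR target genes were read from a list of 11, of which Mertk is also among the macrophage markers. In SSMs, 3 were higher in tdLN and 0 were lower, against 3.03% of all genes called, and the median log2 difference was 0.64. Pltp, a phospholipid transfer protein, went from 70.0 and 53.2 CPM to 485 and 384 CPM (log2 2.82, SE 0.231). Lpl, which releases fatty acids from lipoproteins, went from 27.6 and 16.9 to 84.9 and 76.8 CPM (log2 1.87, SE 0.292). Mertk, a receptor for dying cells, went from 0.129 and 0.465 CPM to 14.1 and 8.21 CPM, a log2 difference of 5.25 (SE 0.500) that rests on low levels in ndLN. Abca1 and Abcg1, the cholesterol exporters, were not called.

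In MSMs edgeR called 0 of the 11 LXR targets between the nodes. There 3 of the 11 had an unadjusted edgeR p under 0.05, against 2515 of 21085 genes. DESeq2's Wald test called 2 of the 11, against 503 of 21085 genes. Pltp had the lowest edgeR adjusted p of the list there, 0.0315, with a log2 difference of 1.74 (SE 0.227). Between the subsets in ndLN, where Nr1h3 differed by 0.22 on the log2 scale, Abca1 was higher in SSMs (log2 2.74), as were Lpcat3 (1.34) and Smpdl3a (1.09), and Mertk was lower (-3.49), so that 4 of 11 were called against 12.1% of all genes. In tdLN 5 of 11 were higher in SSMs, with Abca1 at 2.49 and Apoe at 1.87, and 0 were lower, against 8.69% of all genes called.

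**Figure D4:**
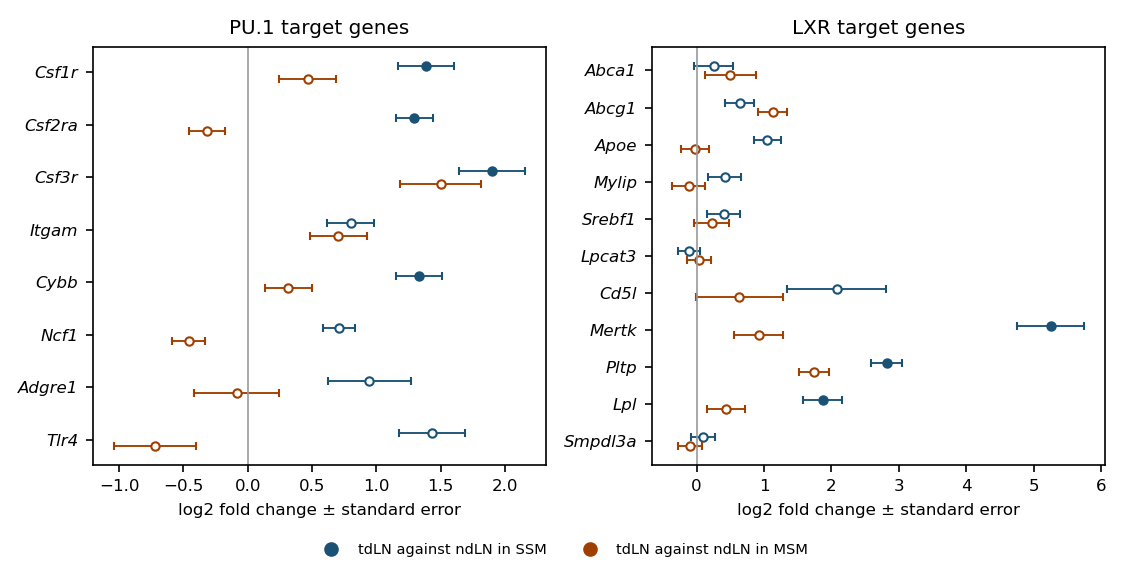
Log2 fold change with its standard error between tdLN and ndLN for 8 PU.1 target genes (left) and 11 LXR target genes (right), in SSMs (blue) and MSMs (orange), with filled points where a gene was called. In SSMs 4 PU.1 targets and 3 LXR targets were called, all higher in tdLN, and in MSMs none was called.

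Relatives and partners of the members were read from a list of 21. Spic, an ETS factor of iron-recycling macrophages and a relative of Spi1, went from 41.3 and 33.3 CPM in SSMs from ndLN to 148 and 135 CPM in SSMs from tdLN (log2 1.93, SE 0.154). Klf6 was called as well, at 0.70 (SE 0.107), and 0 of the 21 were lower, against 3.03% of all genes called. Nr1h2, which encodes LXRβ, stood at 136 and 145 CPM in SSMs from ndLN and 127 and 130 CPM in SSMs from tdLN, and Rxra, the partner of both LXRs, at 38.1 and 35.2 against 32.2 and 30.0 CPM.

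Spic also separated the subsets, being higher in SSMs by 1.32 on the log2 scale in ndLN and 1.56 in tdLN. Nr4a2, the relative of Nr4a1, was lower in SSMs in both nodes (-1.67 and -1.06), with 604 to 652 CPM in the 4 SSM libraries and 1229 to 1959 CPM in the 4 MSM libraries. In ndLN 2 of the 21 were higher in SSMs and 1 lower, a share near the 12.1% of all genes called there. Of the 9988 genes over the count threshold, 2544 were called there, and Cebpe and Id1 of the list were under it. In tdLN 3 were higher and 3 lower, against 8.69% of all genes, the lower ones being Nr4a2, Spib (-1.44) and Id2 (-1.37), an antagonist of E proteins like Id3 that dendritic cells and innate lymphoid cells need.

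Among 12 other transcription factors of myeloid cells, Egr2 was higher in SSMs from tdLN than from ndLN (log2 2.04, SE 0.131), from 73.6 and 61.1 to 286 and 266 CPM, and Bhlhe40 was lower (-1.07, SE 0.150). MSMs held more Irf8 and Batf3, which type 1 conventional dendritic cells need, with SSMs at -1.32 and -1.64 in ndLN and -1.64 and -1.89 in tdLN. Irf5 was lower in SSMs too, at -2.26 in ndLN and -1.08 in tdLN. Of the 10 immediate early genes, 4 were higher in SSMs from tdLN, Jun (1.67), Atf3 (0.97), Fos (0.93) and Dusp1 (0.83). The other direction had 0 calls, and 3.03% of all genes were called there, whereas Nr4a1 was at 0.21. In MSMs edgeR called 0 genes of these 3 lists between the nodes. Its unadjusted p was under 0.05 for 6 of 21, 4 of 12 and 6 of 10, against 2515 of 21085 genes. DESeq2's Wald test called 3, 1 and 3 of them, against 503 of 21085 genes. These lists share genes, Nr4a2 and Nr4a3 being both relatives and immediate early genes, and Egr1 being in the other 12 and the immediate early genes.

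Genes with the most similar profile were found by the mean absolute difference of log2 CPM, centred on each gene's mean, over the 8 libraries and 9988 genes with a mean normalized count over 100. A value of 0 means the same profile. Spi1 was nearest to Snx10 (0.064), Fkbp1b (0.0915) and Cyp27a1 (0.0963), the last of which makes an oxysterol. Nr1h3 was nearest to Hmox1 (0.196), which degrades heme, Fam213b (0.209) and the matrix metalloproteinase gene Mmp14 (0.219). Zeb2 was nearest to Nod1 (0.137), Plod3 (0.139) and Il1rn (0.142), Cebpa to Clec4b1 (0.167), P2ry6 (0.173) and Nectin2 (0.206), and Cebpb to Cyp4f18 (0.124), Itgb5 (0.204) and Gbp7 (0.21).

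Maf had no close match, the nearest being Klra14-ps (0.256), Klre1 (0.307), an NK cell receptor gene, and Cysltr2 (0.352). Klra14-ps is a pseudogene of the Ly49 family, and its counts may be shared with its relatives. Id3 was nearest to Cdc42ep2 (0.164), 2310022A10Rik (0.234) and Ceacam1 (0.246), Klf4 to Lpin2 (0.0902), Cklf (0.0932) and Ppp3cb (0.0977), and Nr4a1 to Polr3a (0.0413), Pitpnb (0.048) and Tgs1 (0.0569). A gene that varies little, such as Nr4a1, has small distances to many genes.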

How the data were processed

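RNA was sequenced from 16 samples, 8 libraries run on lanes 3 and 4 each. The authors made cDNA with SMART-Seq v4, used bcl2fastq 2.20.0.422 and Trimmomatic 0.36, aligned to mm10 with STAR 2.5.3a, took counts per gene from that workflow and deposited them raw (submitters' processing notes and study methods). Between lanes of a library, counts agreed within sampling noise (chi-square per degree of freedom 0.955 to 1.02, against 29.3 to 53.1 between libraries), so lanes were summed. Libraries held 42972328 to 48130352 counts, which makes 3 counts 0.0623 to 0.0698 CPM (counting error only). GENCODE M21 gave symbols for 55154 gene IDs.

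Genes with at least 10 counts in all and counts in at least 2 samples were kept, normalized by TMM (factors 0.902 to 1.15) and fitted in edgeR 4.0.16 (R 4.3.3) with group and pool, or with subset, node and pool. The mean normalized count is on the scale of 1 lane. Pool was a paired block, since each pool of mice gave all 4 kinds of sample by the study's methods. Those methods count 4 pools, but the labels number only 2 per group, and n = 2 was used. Deviations of same-numbered libraries correlated between -0.150 and 0.165 over 10000 genes. In data simulated for SSMs against MSMs in ndLN, with 21085 genes and 200 changed, 157 were called, 155 of them changed. The changes were all 4-fold, in genes averaging over 200 counts per library, and no pool effect was simulated. The rate of false calls in the real comparisons cannot be read from it. Alternatives were DESeq2 1.42.0 size factors and Wald test, no pool, 2 other filters, a threshold of 0.05 and each library left out. The text names every member, up to 4 called genes per list and comparison by fold change, the markers, and 3 nearest genes per member. Nr1h2, Rxra, Abcg1, Id2, Itgax and Ptprc, and values of a named gene in further comparisons, were picked with their values in view. The members and lists were chosen with earlier results of these data known. 1 listed gene is not reported here.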

Additional observations from a re-analysis of the deposited data

How the results depend on the processing

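Of 882 alternative values for the 9 members, 782 kept direction and side of the threshold, 46 lost and 21 gained a call and 33 changed sign, each of the last for a difference that was not called. The number of members called between tdLN and ndLN in SSMs was 4, and 3 without pool as a block, where Zeb2 dropped out. Without pool it was 5 between the subsets in ndLN and 6 in tdLN, and no other count changed. DESeq2's Wald test called 1 member between the nodes in MSMs, 1 for the interaction and 3 between the nodes over both subsets, and a threshold of 0.05 called 1 and 2 of the last pair, all against 0. Of the 21085 genes, the Wald test called 503, 706 and 956 in these 3 comparisons. With 1 library left out, 1 to 6 members were called between the subsets in tdLN and 0 to 3 between the nodes in SSMs. Other scaling moved near-zero values across 0, the DESeq2 size factors and the Wald test giving -0.0166 and -0.0154 for Klf4 between the nodes in MSMs and -0.0399 in both cases for Nr4a1 between the nodes over both subsets, and the Wald test -0.23 for Maf in the interaction. With 1 library left out, log2 differences changed sign within these ranges. Between the subsets in ndLN they were -0.0726 to 0.49 for Nr1h3 and -0.0572 to 0.69 for Klf4. Between the nodes in SSMs they were -0.67 to 0.0353 for Maf and -0.000126 to 0.75 for Klf4. Between the nodes in MSMs they were -0.092 to 0.51 for Cebpb, -1.12 to 1.43 for Maf, -0.17 to 1.18 for Id3 and -0.30 to 0.39 for Klf4. For the interaction they were -1.75 to 0.80 for Maf, -0.38 to 0.97 for Id3 and -0.0306 to 0.72 for Klf4. Over both nodes they were -0.47 to 0.0745 for Cebpa and -0.0453 to 0.10 for Nr4a1, and over both subsets -0.058 to 0.0837 for Nr4a1. The cause was not tested. A group left with 1 library was assumed to vary like the others. With 2 libraries per group, no member could be tested for an outlying library, and Cebpa and Maf rest on the lowest counts.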
